A study of Mus musculus with 14 samples.

Results

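Nuclear genes of oxidative phosphorylation were followed across B cells of 3 mouse genotypes. Members were the genes of the deposited table whose symbol begins with Nduf, Uqcr, Atp5 or Cox4 to Cox8, or is Sdha, Sdhb, Sdhc, Sdhd, Cycs or Cyc1. Atp5j was left out because it neighbours the miR-155 locus. The rule used names and no measured values, although earlier results of these data were known when it was set. It gave 92 members among the 22295 genes listed, made up of 36 subunits of complex I with 4 of its assembly factors, 4 subunits of complex II, 9 of complex III, cytochrome c, 20 of complex IV and 14 of complex V. The other 4, Cox4nb, Atp5s, Atp5sl and the pseudogene Atp5l-ps1, match by name and are not counted as subunits here. Ndufa4 and its paralog Ndufa4l2 were placed with complex IV, where Ndufa4 is now assigned.

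The respiratory chain sits in the inner mitochondrial membrane. Complex I takes electrons from NADH and complex II from succinate, complex III passes them from ubiquinol to cytochrome c, and complex IV hands them to oxygen. The proton gradient built on the way drives complex V, the ATP synthase. Nearly all subunits come from nuclear genes, and the mitochondrial genome encodes a few at the core of complexes I, III, IV and V. Activated B cells raise both glycolysis and respiration, and plasma cells rely on respiration for antibody secretion.

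The cells were splenic B cells, purified by negative selection and stimulated with LPS (5 µg/ml) together with IL-4 (10 ng/ml) over a culture of 96 h. This culture was shared by all groups, so no unstimulated cells were compared. The groups were wild type (WT, n = 4), PU.1[155-/155-] mice (PU1_KI, n = 5), whose PU.1 gene has a mutated miR-155 site, and miR-155[-/-] mice (miR155_KO, n = 5), and these n hold throughout. The series asks how miR-155 and PU.1, one of its targets, act on terminal B cell differentiation. Polyadenylated RNA was sequenced, with a depth, recovered from the deposited values, of 31.5 to 52.4 M reads per library. Sfpi1, the gene of PU.1, had 9.73 to 13.2 RPKM (reads per kilobase of transcript, scaled to sequencing depth) in WT. It had 21.1 to 26 in PU1_KI and 15.5 to 18.3 in miR155_KO, while miR-155 itself was not analysed here. On the first principal component of all genes tested the library miR155_KO_5 lay nearer the other genotypes (19.8) than the other 4 of its group (24.2 to 27.7), and WT_1 lay at -15.4 with the other WT libraries at -18.1 or -18.2.

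Of the 92 members, 85 passed the expression filter of at least 1 RPKM in at least 4 libraries and were tested. The 7 that did not were Cox4i2, Cox7a1, Cox7b2, Cox8b, Cox8c, Ndufa4l2 and Atp5l-ps1, of which the first 6 are isoforms or paralogs of other tissues or conditions and the last is a pseudogene. Levels of the 85 ran from 1.75 RPKM for Ndufb4 to 314 for Atp5b (means of 14 libraries), with a median of 40.2, while the median of all 9627 genes tested was 7.33. Within complex I the median was 25, with Ndufa2 highest at 67.9. The median of complex IV was 64.5 and that of complex V 64.9, and their highest members were Cox4i1 at 251 and Atp5b at 314. The complex I assembly factors lay lower, between 2.29 for Ndufaf4 and 7.96 for Ndufaf2, and Cycs stood at 4.37. Subunits that occur once per complex did not have equal RPKM, and low values of genes with near-identical copies are uncertain: for 23 of the 91 members with a coding transcript, over 30% of that transcript matched other genes at 95% identity or more.

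**Figure D1:**
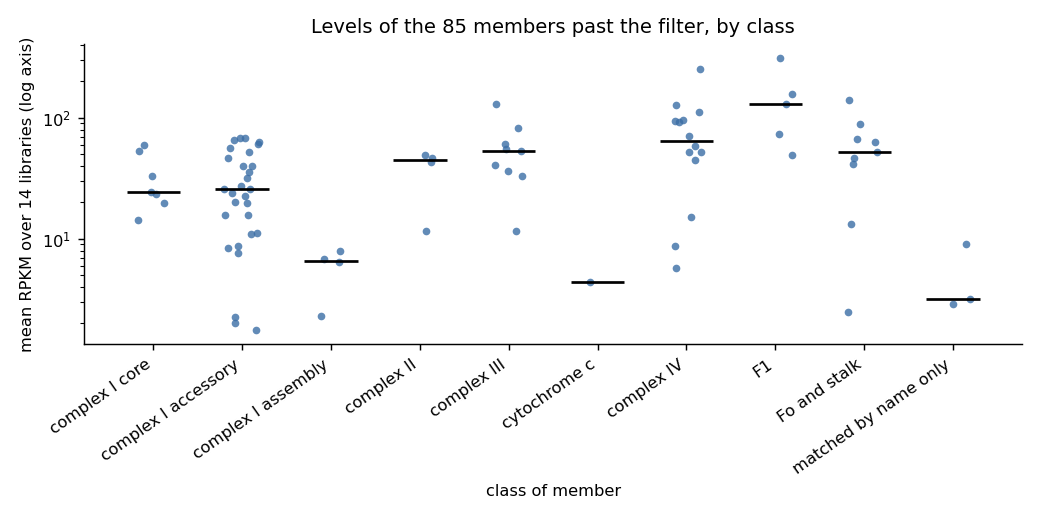
Mean RPKM over all 14 libraries (log axis) of each member past the filter, by class. Points are genes and bars are class medians; complex I runs from 1.75 to 67.9 RPKM and the assembly factors lie below 8.

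Taken as a sum, the members held 2.01 ± 0.028% of the RPKM of all genes in WT, 1.97 ± 0.0646% in PU1_KI and 1.93 ± 0.0989% in miR155_KO (SD). The ranges over libraries were 1.98 to 2.04%, 1.85 to 2.01% and 1.8 to 2.03%, so all groups overlapped. The spread between libraries of a genotype was also close to that of other genes, with a median coefficient of variation of 7.88% over members and 7.37% over all genes tested. It was highest in Uqcrq (26.8%), Uqcr11 (25.8%) and Ndufs7 (22.3%), subunits of complexes III and I, whose spread exceeded most of the changes seen in other members. For every member, fewer cells of a type and less RNA per cell cannot be told apart in bulk RNA.

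In PU1_KI few members differed from WT. Cox6a2, the heart and skeletal muscle isoform of a complex IV subunit, rose 2.31-fold, and Ndufv3, Ndufa6, Ndufaf3 and Atp5c1 rose by less. Ndufaf4, Atp5k and Ndufs1 fell. These 5 rises and 3 falls among 85 members stood beside 23.7% of all genes higher and 4.03% lower. The member median was a log2 fold change of 0.07, and that of all genes 0.08. Cox6a2 was the single member past 1.5-fold, a size reached by 2.72% of genes. The balance of the calls depended on scaling: median-of-ratios scaling gave 5 members higher and 15 lower (all genes 17.5% and 15.6%) and likewise 5 and 15 with quantile normalization (15.8% and 16.1%), where the all-gene median was -0.01. Without WT_1, 3 members were higher, and without PU1_KI_1, 13.

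In miR155_KO more members moved, and most of those that did were lower than in WT. Cox6a2 rose 9.62-fold and Cox6b2, the testis isoform of another complex IV subunit, 2.59-fold. Ndufaf4, Ndufaf2, Cycs and Atp5k fell by 0.59 to 0.71 on the log2 scale. In all 11 members rose and 39 fell, with 27.2% of all genes higher and 35.3% lower. The member median was -0.11 and that of all genes -0.05. At 1.5-fold or more, 2 members were higher and 4 lower, against 13.3% of genes in either direction. Median-of-ratios scaling gave 14 higher members and 39 lower ones (all genes 31.5% and 37.4%), and with quantile normalization 23 and 31 (31.2% and 36.9%). All 5 miR155_KO libraries lay above every WT library in 10 members and below in 23, as they did in 23.5% and 24.9% of all genes.

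Set against PU1_KI, miR155_KO had 7 members higher and 43 lower, beside 17.9% and 46.4% of all genes. The member median was -0.17 and the all-gene median -0.13, which became -0.03 with median-of-ratios scaling, which gave 10 higher members and 27 lower ones (28.3% and 35.1% of genes). With quantile normalization the balance turned, to 22 higher and 16 lower (29.4% and 33.4%), so small falls between the mutants have no firm direction. Cox6a2 and Cox6b2 were above and Ndufv3 below by 1.5-fold or more, in a background of 9.88%. The comparisons share libraries, so their counts are not independent.

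**Figure D2:**
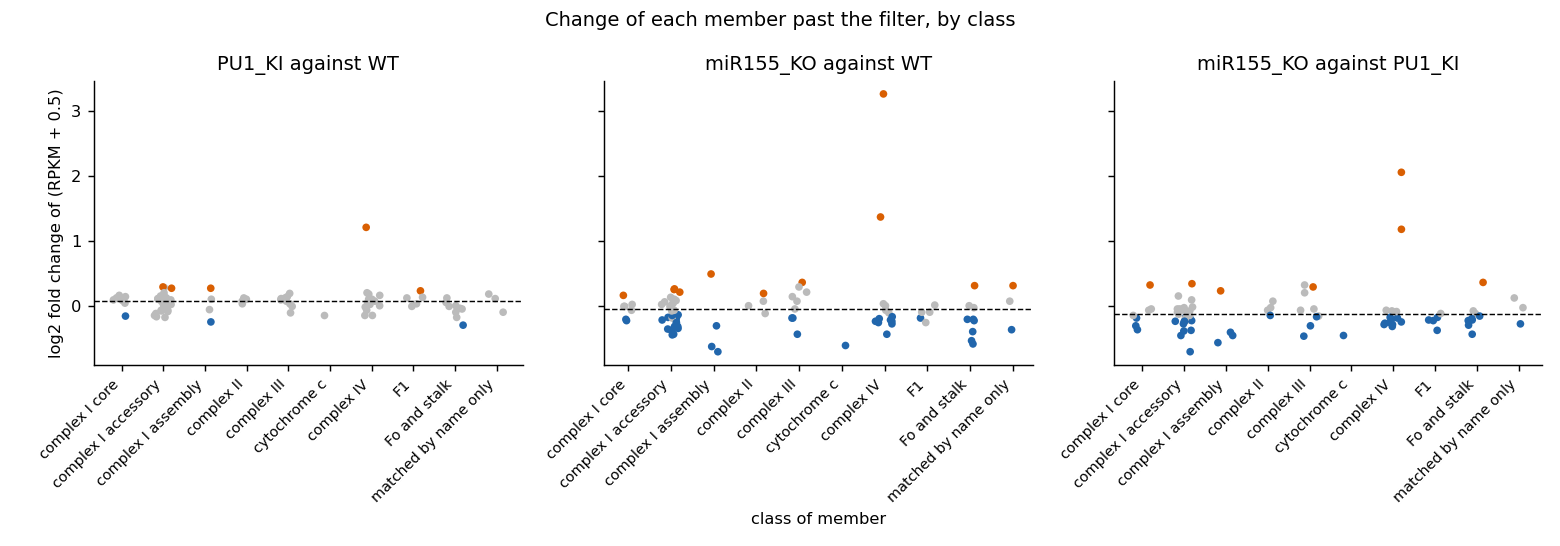
Change of each tested member on the log2(RPKM + 0.5) scale in the 3 comparisons, by class. Orange points rose and blue points fell at an adjusted p under 0.05, grey points passed in neither direction, and the dashed line is the median of all genes tested; Cox6a2 reaches 3.27 in miR155_KO against WT.

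Complex I, the largest of the chain, had 2 rises and 1 fall among 36 subunits in PU1_KI, and 4 rises and 16 falls in miR155_KO. Of all genes, 23.7% were higher and 4.03% lower in PU1_KI, and 27.2% and 35.3% in miR155_KO. Both other scalings gave 2 higher and 6 lower subunits in PU1_KI, and quantile normalization 10 and 13 in miR155_KO. Its 7 core subunits, which carry the flavin and the iron-sulphur clusters, contributed 1 rise and 2 falls in miR155_KO, and its 29 accessory subunits 3 rises and 14 falls. The median change from WT was -0.07 in miR155_KO, close to the all-gene median of -0.05.

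Ndufv3, an accessory subunit that sits beside the NADH-binding flavoprotein, moved in opposite directions in the mutants. Ndufv3 held 19.3, 20.3, 19.4 and 22.6 RPKM in WT, 23.4, 23.6, 25.9, 25.1 and 24.8 in PU1_KI, and 14.2, 15.2, 14, 14.1 and 17 in miR155_KO. No library of one genotype overlapped another genotype. The log2 fold change from WT was 0.27 ± 0.06 (SE) in PU1_KI (limma adjusted p = 0.00468) and -0.44 ± 0.06 in miR155_KO (adjusted p = 9.18e-06). Between the mutants it was -0.71 ± 0.06 (adjusted p = 1.12e-08), the largest fall of any tested member there, and it was -0.60 with median-of-ratios scaling.

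Ndufa3, a small accessory subunit, was among the members with the smallest adjusted p. Its values were 69.9, 79.6, 71.5 and 70.4 RPKM in WT, 71.2, 73.9, 74.5, 79.4 and 73.5 in PU1_KI, and 56.5, 59.3, 55.7, 53.2 and 60.3 in miR155_KO. Every miR155_KO library was below every library of the other genotypes, which overlapped (-0.35 ± 0.06 from WT, adjusted p = 2.85e-05). Ndufa5 had the largest fall from WT among accessory subunits, from 12.6 ± 0.888 to 9.18 ± 1.06 RPKM (-0.45 ± 0.09, adjusted p = 0.000344), with PU1_KI at 11.3 ± 1.59. Ndufs4, needed for a stable NADH-binding module, fell from 16.4 ± 0.421 to 14 ± 0.296 RPKM (-0.22 ± 0.05, adjusted p = 0.00132) and had the smallest spread of all members, 3.65%. Among core subunits Ndufv2 fell from 33.5 ± 1.41 to 29 ± 1.5 RPKM and Ndufs3 from 20.5 ± 1.45 to 17.4 ± 0.693 (-0.23 ± 0.06, adjusted p = 0.00365), although 84.1% of the Ndufs3 transcript matched other genes.

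A few complex I subunits rose in miR155_KO. Ndufs1, the largest core subunit, held 14.3, 13.5, 14.3 and 14.6 RPKM in WT, 12.7, 12.7, 11.8, 13.6 and 12.6 in PU1_KI, and 14.8, 14.9, 16.3, 16.5 and 17.2 in miR155_KO. The miR155_KO libraries were all above the rest, with a log2 fold change of 0.16 ± 0.06 from WT (adjusted p = 0.0198, or 0.0706 without WT_2) and 0.32 ± 0.05 from PU1_KI (adjusted p = 4.78e-05). Its fall in PU1_KI was near the threshold on the deposited values (-0.16 ± 0.06, adjusted p = 0.0457). That call was lost without any one of 9 libraries, with adjusted p between 0.0514 and 0.126. With median-of-ratios scaling the fall was -0.24 (adjusted p = 0.00064). Ndufb3, an accessory subunit of the membrane arm, rose from 19.1 ± 1.86 to 23 ± 0.995 RPKM (0.26 ± 0.06, adjusted p = 0.00129), with 37% of its transcript matched elsewhere. Ndufa6 rose in both mutants, from 54 ± 5.44 to 66.2 ± 7.39 RPKM in PU1_KI (adjusted p = 0.0108) and 62.3 ± 2.16 in miR155_KO (adjusted p = 0.0287). Both calls rested on WT_1, which held 46 RPKM, and were lost without it (adjusted p = 0.0537 and 0.131). The miR155_KO call was also lost without miR155_KO_2 (0.0587) or miR155_KO_3 (0.0589).

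The 4 complex I assembly factors named Ndufaf help build the complex without staying in it. In miR155_KO they showed larger changes than most subunits, with 1 rise and 3 falls (all genes 27.2% higher and 35.3% lower). In PU1_KI 1 rose and 1 fell (all genes 23.7% and 4.03%). Ndufaf4 held 3, 3.04, 2.79 and 3.05 RPKM in WT, 2.21, 2.42, 2.3, 2.8 and 2.37 in PU1_KI, and 1.51, 1.63, 1.53, 1.55 and 1.92 in miR155_KO. Its levels fell in the order WT, PU1_KI, miR155_KO. Log2 fold changes were -0.25 ± 0.07 for PU1_KI (adjusted p = 0.0095), -0.71 ± 0.07 for miR155_KO (adjusted p = 4.01e-08) and -0.46 ± 0.06 between the mutants (adjusted p = 6.36e-06). The WT and PU1_KI ranges met at 2.79 and 2.8 RPKM, and miR155_KO lay below both.

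Ndufaf2 held 9.21, 8.75, 9.25 and 10.1 RPKM in WT, 7.8, 9.59, 9.49, 9.02 and 8.89 in PU1_KI, and 6.4, 5.13, 6.15, 4.87 and 6.85 in miR155_KO. PU1_KI overlapped WT, and miR155_KO was lower than both (-0.63 ± 0.08 from WT, adjusted p = 2.75e-06). Ndufaf1 fell from 7.08 ± 0.528 to 5.62 ± 0.266 RPKM (-0.31 ± 0.07, adjusted p = 0.000647). Ndufaf3 went the other way, with 4.61, 5.34, 5.01 and 5.87 RPKM in WT, 5.28, 6.41, 6.98, 6.88 and 6.31 in PU1_KI, and 7.39, 7.68, 7.57, 6.59 and 8.4 in miR155_KO. Its rise in miR155_KO was 0.49 ± 0.08 (adjusted p = 3.13e-05). In PU1_KI it was 0.27 ± 0.08 (adjusted p = 0.0186), a call lost without WT_1 (0.0801) or PU1_KI_3 (0.0541).

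The promoter of Ndufaf4 is shown because the gene had the largest fall from WT of any member in miR155_KO. The sequence is the RefSeq window of 250 bases before to 50 after the start, at chr4:24897833-24898132 on the plus strand of GRCm38.p6, and the capitals mark GCATGCGC on either strand, the core of the motif of NRF1, a factor known to drive respiratory genes.
Ndufaf4: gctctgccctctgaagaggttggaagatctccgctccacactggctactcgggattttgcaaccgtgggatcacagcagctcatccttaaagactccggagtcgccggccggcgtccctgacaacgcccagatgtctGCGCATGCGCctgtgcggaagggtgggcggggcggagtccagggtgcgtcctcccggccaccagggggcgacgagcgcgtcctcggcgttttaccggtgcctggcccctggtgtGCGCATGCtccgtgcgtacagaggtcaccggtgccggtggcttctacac

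Complex II, whose 4 subunits also belong to the citric acid cycle, had no call in PU1_KI (all genes 23.7% higher and 4.03% lower). In miR155_KO it had 1 rise and no fall (all genes 27.2% and 35.3%). With quantile normalization 3 of the 4 were higher in miR155_KO, both against WT and against PU1_KI. In miR155_KO Sdhc, a membrane anchor, rose from 10.8 ± 0.143 to 12.4 ± 0.89 RPKM (0.19 ± 0.06, adjusted p = 0.00948), with WT at 10.6 to 11 and miR155_KO at 11.3 to 13.6. Sdha, the flavoprotein, had 45.6 ± 1.65 (WT), 47.8 ± 2.62 (PU1_KI) and 45.6 ± 2.03 RPKM (miR155_KO), and passed in no comparison of the deposited values. Sdhb, the iron-sulphur subunit, had 47.2 ± 3.8, 50.8 ± 4.6 and 49.8 ± 4.59, also with no call there. With quantile normalization both were higher in miR155_KO than in WT (0.12, adjusted p = 0.00649, and 0.20, adjusted p = 0.000409). Sdhd, the other anchor, had 44.5 ± 2.75, 45.3 ± 1.99 and 40.8 ± 3.75, and its difference between the mutants (-0.15 ± 0.06, adjusted p = 0.0363) did not pass under median-of-ratios scaling (adjusted p = 0.327), nor without any one of 8 libraries (0.0543 to 0.091). Its difference from WT passed with that scaling (-0.11, adjusted p = 0.033) and without miR155_KO_5 (-0.18, 0.00819).

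Complex III had 1 rise and 3 falls among 9 subunits in miR155_KO, where 27.2% of all genes were higher. The 33.3% that fell compare with 35.3% of all genes. Quantile normalization turned the balance in miR155_KO to 3 higher and 2 lower. In PU1_KI the complex had no call on the deposited values (all genes 23.7% higher and 4.03% lower). With quantile normalization 1 subunit was lower there and none higher (all genes 16.1% and 15.8%). Uqcrb, a small subunit near the ubiquinone site, held 44.3, 44.6, 45.9 and 45.5 RPKM in WT, 43, 49.3, 42.3, 48.4 and 46.9 in PU1_KI, and 30.7, 30.9, 32.3, 33.6 and 38.1 in miR155_KO. The last group lay below the others in every library, its highest value being that of miR155_KO_5 (-0.44 ± 0.07 from WT, adjusted p = 1e-05). A share of 68.6% of its transcript matched other genes, so the level is uncertain. Uqcrfs1, the Rieske iron-sulphur protein, went up, with 31.4, 30.1, 32.2 and 35.7 RPKM in WT, 31.7, 34.7, 34.1, 37.4 and 32.1 in PU1_KI, and 39.6, 42.9, 42, 39.1 and 44.7 in miR155_KO. All miR155_KO libraries were above the others (0.36 ± 0.06 from WT, adjusted p = 7.49e-05). Uqcrh, the acidic hinge protein and the most abundant member of the complex, fell in miR155_KO from 137 to 120 RPKM (-0.19, adjusted p = 0.0111). That call was lost without WT_4 (adjusted p = 0.0548). In PU1_KI Uqcrh was lower with quantile normalization (-0.11, adjusted p = 0.0455). Cyc1, the haem-bearing cytochrome c1, stood at 50.4 ± 2.23, 57.8 ± 5.76 and 55.8 ± 5.2 RPKM and passed in neither mutant (adjusted p = 0.0675 and 0.113). In PU1_KI it passed without PU1_KI_1 (adjusted p = 0.0294) or miR155_KO_5 (0.0448), and in miR155_KO with median-of-ratios scaling (0.16, adjusted p = 0.0184) or without miR155_KO_4 (adjusted p = 0.0381).

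Cytochrome c, which carries electrons between complexes III and IV and also triggers apoptosis once released, fell in miR155_KO. Cycs held 4.99, 5.19, 5.2 and 5.73 RPKM in WT, 4.34, 4.45, 4.58, 5.23 and 4.9 in PU1_KI, and 2.93, 3.16, 3.51, 3.07 and 3.87 in miR155_KO. The miR155_KO libraries were below all others, while PU1_KI overlapped WT. Log2 fold changes were -0.61 ± 0.07 from WT (adjusted p = 6.57e-07) and -0.45 ± 0.07 from PU1_KI (adjusted p = 1.3e-05). PU1_KI against WT gave -0.15 ± 0.07 (adjusted p = 0.122), which passed with median-of-ratios scaling (-0.23, adjusted p = 0.00209). Of the Cycs transcript, 35% matched other genes, so its level is uncertain.

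The Cycs promoter is shown with the same motif in capitals, since Cycs is a textbook target of NRF1. It lies at chr6:50566520-50566819 on the minus strand of GRCm38.p6 (RefSeq).
Cycs: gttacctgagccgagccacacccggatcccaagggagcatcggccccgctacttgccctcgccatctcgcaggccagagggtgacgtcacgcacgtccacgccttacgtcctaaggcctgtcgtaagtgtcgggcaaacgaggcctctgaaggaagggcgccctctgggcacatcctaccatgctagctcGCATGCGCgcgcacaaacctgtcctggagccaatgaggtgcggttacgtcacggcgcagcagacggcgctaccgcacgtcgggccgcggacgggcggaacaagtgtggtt

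**Figure D3:**
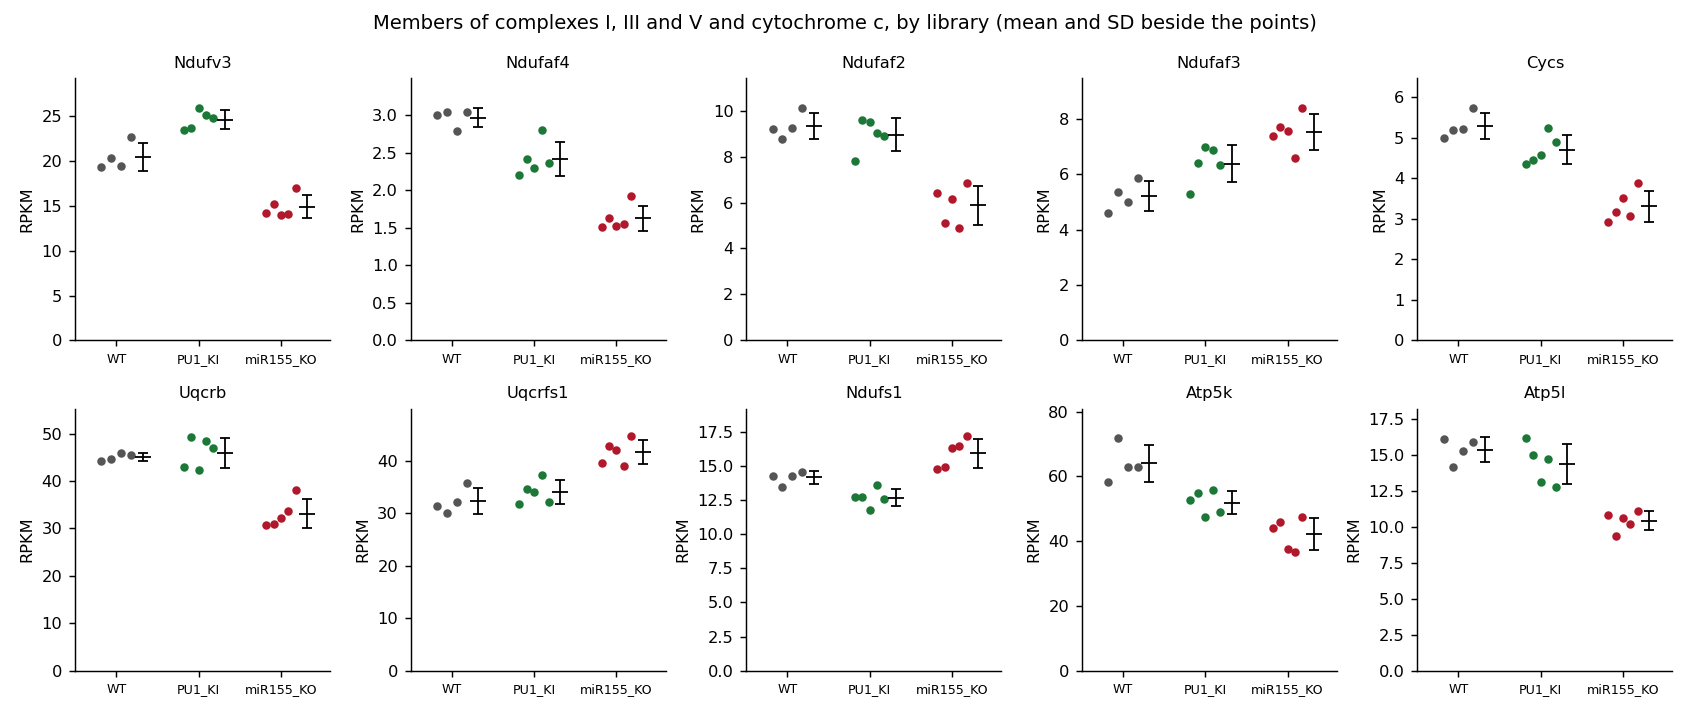
RPKM of 10 members in every library, with the mean and SD of each genotype beside the points. Ndufv3 is highest in PU1_KI and lowest in miR155_KO; Ndufaf3, Uqcrfs1 and Ndufs1 are highest in miR155_KO; the other 6 are lowest there, with Atp5k overlapping PU1_KI.

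Complex IV held both of the members that changed most, and each is a tissue isoform whose common partner passed in no comparison of the deposited values. Among its 14 tested subunits 1 rose and none fell in PU1_KI (all genes 23.7% and 4.03%), while 2 rose and 8 fell in miR155_KO (all genes 27.2% and 35.3%). The absence of falls in PU1_KI depended on scaling, as 4 subunits were lower there with either alternative, and quantile normalization left 6 lower in miR155_KO. Cox6a2 (ENSMUSG00000030785, chr7:135348950-135349880 on the minus strand of NCBIM37) held 2.14, 3.65, 3.05 and 2.93 RPKM in WT, 6.54, 6.86, 7.76, 9.72 and 6.31 in PU1_KI, and 37, 35.5, 35.7, 27 and 27.2 in miR155_KO. The 3 genotypes were separate, with miR155_KO far above PU1_KI and PU1_KI above WT. Log2 fold changes were 1.21 ± 0.13 in PU1_KI (adjusted p = 1.17e-06), 3.27 ± 0.13 in miR155_KO (adjusted p = 1.54e-13) and 2.06 ± 0.12 between the mutants (adjusted p = 5.61e-11).

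Cox6a1, the isoform of most tissues, had 93.1 ± 7.22, 100 ± 7.57 and 95.2 ± 11.7 RPKM in the same order and passed in no comparison. Cox6a2 thus made up 3.04 ± 0.429% of the summed RPKM of both isoforms in WT, 6.88 ± 0.763% in PU1_KI and 25.5 ± 3.52% in miR155_KO. Cox6a2 shares 66 bp with Itgad on the opposite strand. Itgad was at 0 in WT and PU1_KI and at 0.00353 RPKM in miR155_KO, and the part of shared reads was not tested. Itgam, an integrin gene of myeloid cells 77276 bp away, was picked out after its values were seen: it went from 0.0499 ± 0.00738 to 0.126 ± 0.0225 and 0.331 ± 0.0515 RPKM, under the filter and not tested. Armc5, at 30991 bp, stood at 4.63 ± 0.918, 4.85 ± 0.628 and 3.56 ± 0.627.

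Cox6b2 (ENSMUSG00000051811, chr7:4703396-4704696 on the minus strand of NCBIM37) held 4.36, 5.43, 4.93 and 6.12 RPKM in WT, 5.27, 5.88, 5.42, 6.65 and 6.95 in PU1_KI, and 14.5, 14.4, 14.2, 13.7 and 14.3 in miR155_KO. WT and PU1_KI overlapped, and miR155_KO was above both with a narrow range. Its log2 fold change was 1.37 ± 0.08 in miR155_KO (adjusted p = 5.3e-11) and 0.20 ± 0.08 in PU1_KI (adjusted p = 0.0878), with 1.18 ± 0.08 between the mutants (adjusted p = 2.57e-10). The PU1_KI value passed without WT_4 (0.27, adjusted p = 0.0213) or PU1_KI_1 (0.24, adjusted p = 0.0387). Cox6b1, the common isoform, had 129 ± 4.45, 129 ± 7.55 and 123 ± 6.73 RPKM, with no call on the values as deposited (PU1_KI against WT passed with median-of-ratios scaling, at -0.09 and an adjusted p of 0.0301, and with quantile normalization, at -0.14 and 0.00429). The share of Cox6b2 in both was 3.87 ± 0.415%, 4.47 ± 0.415% and 10.4 ± 0.485%.

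The promoter of Cox6b2 is shown for comparison, as the gene rose in miR155_KO. It lies at chr7:4753045-4753344 on the minus strand of GRCm38.p6 (RefSeq), and none of the 4 motifs searched occurs in this window, so it has no capitals.
Cox6b2: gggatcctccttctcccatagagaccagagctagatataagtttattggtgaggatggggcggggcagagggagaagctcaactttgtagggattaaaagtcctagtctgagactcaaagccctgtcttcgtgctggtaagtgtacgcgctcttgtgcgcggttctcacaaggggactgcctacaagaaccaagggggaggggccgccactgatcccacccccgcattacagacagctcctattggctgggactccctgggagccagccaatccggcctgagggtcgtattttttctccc

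**Figure D4:**
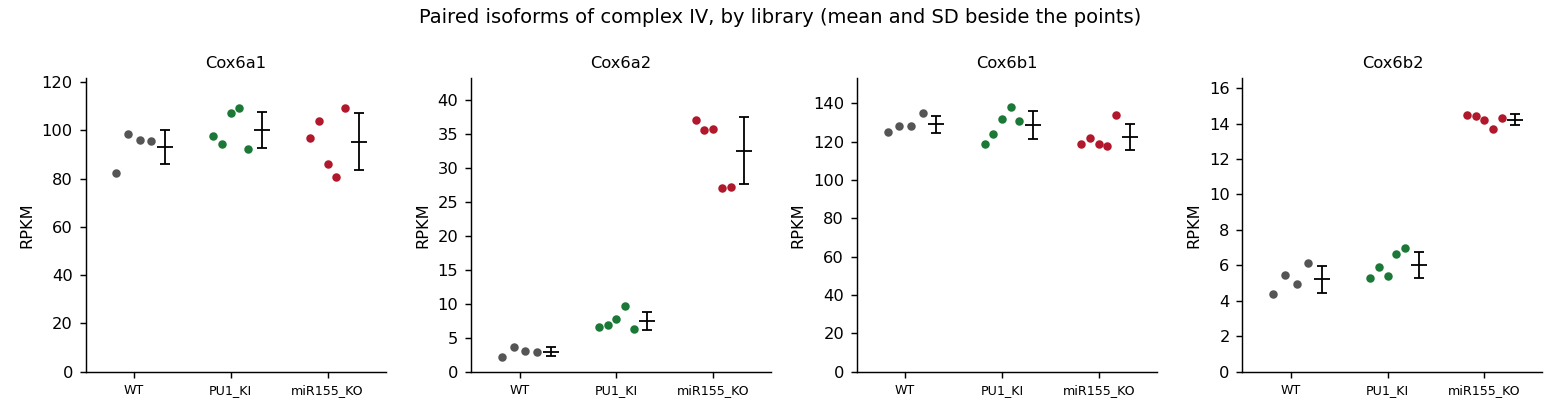
RPKM of the paired complex IV isoforms in every library, with mean and SD of each genotype. Cox6a2 and Cox6b2 rise in miR155_KO to 27 RPKM and 13.7 RPKM or more, while Cox6a1 and Cox6b1 overlap between genotypes.

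The other tissue isoforms of complex IV stayed low. Cox4i2, the lung isoform, had 0.23 to 0.597 RPKM in WT, 0 to 0.134 in PU1_KI and 0.145 to 0.497 in miR155_KO, so PU1_KI lay below the others. Cox7a1, of heart and muscle, had means of 0.387, 0.671 and 0.38. Ndufa4l2, which replaces Ndufa4 in hypoxia, was at 0.0381, 0.0307 and 0.0759, and Cox8b at 0.0195, 0 and 0.0217. Cox7b2 and Cox8c were at 0 in every library. Of the common partners, Cox4i1, Cox7a2, Cox7a2l, Cox8a and Ndufa4 had no call in PU1_KI against WT on the deposited values. Ndufa4 was lower there with median-of-ratios scaling (-0.24, adjusted p = 0.00129), with quantile normalization (-0.26, 0.000452) and without miR155_KO_5 (-0.15, 0.033). Cox7a2l was higher without WT_3 (0.22, adjusted p = 0.0441) or PU1_KI_1 (0.21, 0.0487), and Cox8a without WT_2 (0.20, 0.0496). Cox7a2, Cox8a and Ndufa4 fell in miR155_KO (-0.20, -0.17 and -0.24), although Cox7a2 and Cox8a lost their calls without WT_4 (adjusted p = 0.0556 and 0.071), and Cox8a also without any of 5 other libraries (adjusted p from 0.0538 to 0.147). Quantile normalization also ended both calls (adjusted p = 0.128 and 0.177).

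The falls in complex IV were modest. Cox5b, a zinc-binding subunit, fell from 53.9 ± 1.58 RPKM in WT to 46.2 ± 3.4 in miR155_KO (-0.22 ± 0.06, adjusted p = 0.00354), with PU1_KI at 56.7 ± 3.2, and Cox5a, a subunit on the matrix side, from 96.5 ± 3.67 to 81.5 ± 1.55 (-0.24 ± 0.06, adjusted p = 0.00107). Cox7c, a small membrane subunit, had the largest fall of the complex, from 6.59 ± 0.441 to 4.75 ± 0.59 RPKM (-0.44 ± 0.08, adjusted p = 0.00011). Of its transcript 32.9% matched elsewhere, as did 50.9% of the Cox5b and 42% of the Cox5a transcript.

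Complex V, the ATP synthase, had 1 rise and 7 falls from WT among 14 subunits in miR155_KO. Of the falls 6 were in the membrane-embedded Fo part and the peripheral stalk, which hold 9 members. The F1 part, which makes ATP and here includes the central stalk, had 1 fall among 5. Quantile normalization gave 3 rises and 5 falls in the complex, 2 and 4 of them in Fo and the peripheral stalk. Of all genes, 27.2% were higher and 35.3% lower as deposited, and 31.2% and 36.9% with this scaling. Against PU1_KI, miR155_KO had 4 falls among 5 in F1, and 6 falls and 1 rise among 9 in Fo and the peripheral stalk. Of all genes, 46.4% were lower and 17.9% higher there. With median-of-ratios scaling these falls numbered 1 and 3 (all genes 35.1% lower), and with quantile normalization 0 and 1 (33.4%). In PU1_KI 1 subunit of the complex rose from WT and 1 fell (all genes 23.7% higher and 4.03% lower). There 3 were lower and 1 higher with median-of-ratios scaling (all genes 15.6% and 17.5%). With quantile normalization 2 were lower and 1 higher (16.1% and 15.8%). Atp5k, subunit e, which holds synthase dimers together, had 58.2, 71.8, 63 and 63 RPKM in WT, 52.6, 54.9, 47.3, 55.7 and 49.1 in PU1_KI, and 44.1, 45.9, 37.7, 36.5 and 47.4 in miR155_KO. WT was above both mutants, whose ranges overlapped at 47.3 to 47.4. The log2 fold change was -0.30 ± 0.08 in PU1_KI (adjusted p = 0.01), -0.59 ± 0.08 in miR155_KO (adjusted p = 3.82e-06) and -0.30 ± 0.08 between them (adjusted p = 0.00242, or 0.217 with quantile normalization).

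Atp5l, subunit g, its partner in dimers, had 16.1, 14.2, 15.3 and 15.9 RPKM in WT, 16.2, 15, 13.1, 14.7 and 12.8 in PU1_KI, and 10.8, 9.4, 10.6, 10.2 and 11.1 in miR155_KO. WT and PU1_KI overlapped, with miR155_KO below both (-0.54 ± 0.07 from WT, adjusted p = 1.5e-06). Reads of both genes may be shared with copies, as 56.6% of the Atp5k and 86.8% of the Atp5l transcript matched other genes. The same holds for Atp5h (80.5%) and Atp5f1 (64.6%), which also fell from WT in miR155_KO. In F1, Atp5c1, the rotating gamma subunit, rose from 68.7 ± 4.56 to 80.6 ± 5.52 RPKM in PU1_KI (0.23 ± 0.06, adjusted p = 0.0112) and stood at 69 ± 3.59 in miR155_KO. Of the Atp5c1 transcript 37.5% matched other genes. Atp5e, the small epsilon subunit of the central stalk, was at 135, 145 and 112 RPKM. It was lower in miR155_KO than in PU1_KI (-0.38, adjusted p = 0.00919), which did not hold with median-of-ratios scaling (adjusted p = 0.0502). Its difference from WT in miR155_KO had no call (-0.26, adjusted p = 0.0782). That difference passed without WT_1 (-0.39, adjusted p = 0.00617) or miR155_KO_2 (-0.32, adjusted p = 0.0408). Atp5b, the catalytic beta subunit, had 320 ± 21.4, 326 ± 20.2 and 299 ± 22.6 RPKM with no call on the deposited values. Without miR155_KO_5 it was lower in miR155_KO than in WT (-0.14, adjusted p = 0.0484) and than in PU1_KI (-0.17, 0.0159), the latter also without PU1_KI_1 (-0.15, 0.0465). The fall of Atp5a1, the alpha subunit, in miR155_KO (-0.19 ± 0.07, adjusted p = 0.0307) was lost without any one of WT_4 and miR155_KO_1 to miR155_KO_4 (adjusted p from 0.0579 to 0.125).

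The c subunit, which forms the rotor ring, is encoded by 3 genes with one mature protein. They moved apart in miR155_KO. Atp5g1 had 2.28, 2.4, 2.13 and 2.37 RPKM in WT, 2.06, 2.16, 2.22, 2.48 and 2.09 in PU1_KI, and 2.74, 3.18, 2.94, 2.45 and 3.57 in miR155_KO, so it was above WT in every miR155_KO library (0.31 ± 0.08, adjusted p = 0.00222). Atp5g3 had 145, 160, 172 and 161 RPKM in WT, 130, 152, 139, 159 and 124 in PU1_KI, and 116, 133, 109, 103 and 144 in miR155_KO. It was below WT in every miR155_KO library (-0.40 ± 0.09, adjusted p = 0.0009). In PU1_KI it had no call as deposited (adjusted p = 0.157). It was lower there with median-of-ratios scaling (-0.27, adjusted p = 0.0156) and quantile normalization (-0.27, adjusted p = 0.00948). Atp5g2 had 85.5 ± 3.97, 93.1 ± 5.98 and 85.5 ± 3.18 RPKM and passed in no comparison of the deposited values, although miR155_KO against PU1_KI did without PU1_KI_1 (-0.14, adjusted p = 0.0311).

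Of the summed RPKM of these 3 genes, Atp5g3 held 64.5 ± 1.21% in WT and less in the mutants, 59.6 ± 1.23% in PU1_KI and 57.5 ± 3.29% in miR155_KO. The share of Atp5g2 was 34.6 ± 1.13%, 39.5 ± 1.2% and 41 ± 3.35%, and that of Atp5g1 0.931 ± 0.0789%, 0.934 ± 0.0415% and 1.42 ± 0.0991%. In both mutants every library had a larger Atp5g2 share and a smaller Atp5g3 share than every WT library, and miR155_KO_5 lay nearest to WT (36.1% and 62.3%).

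**Figure D5:**
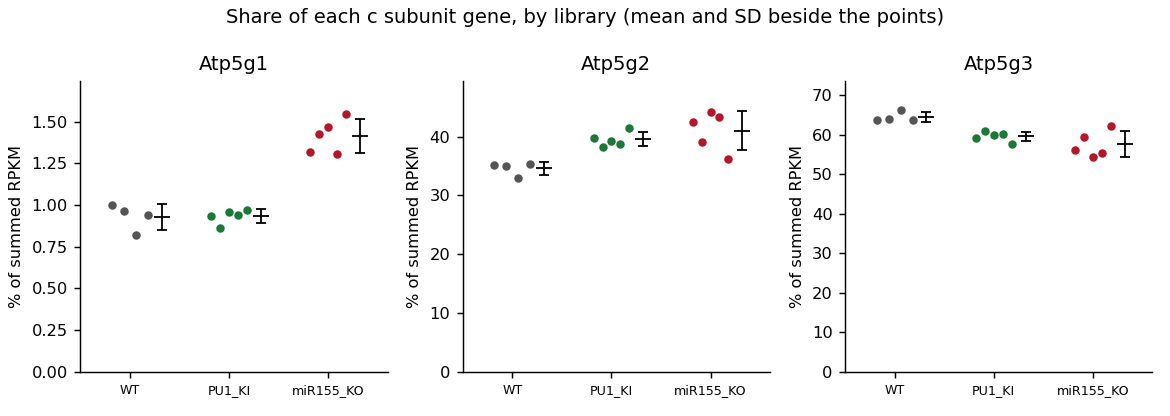
Share of each c subunit gene in the summed RPKM of Atp5g1, Atp5g2 and Atp5g3, per library, with mean and SD. Atp5g1 is 1.31% or more in miR155_KO and 1% or less in the other genotypes, and Atp5g3 is below WT in both mutants.

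Among the members matched by name, Atp5s rose in miR155_KO, from 2.5 to 3.22 RPKM (0.31, adjusted p = 0.00472), and Cox4nb fell from 3.63 to 2.7 (-0.37, adjusted p = 0.000874), while neither passed in PU1_KI. Atp5sl had no call in either mutant.

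Promoters were searched for short motifs in the RefSeq windows of 71 members and of all 27025 genes in the table, both strands, counting a gene if any of its windows held the letters. The NRF1 core GCATGCGC was in 12 members (16.9%) and in 3.05% of all genes. AAGATGGC, the core of the YY1 motif, was in 8 members (11.3%, all genes 3.19%), and CCGGAAGT, the form bound by the ETS factor GABP, in 5 (7.04%, all genes 4.31%). GAGGAAGT, the form preferred by PU.1, was in 2 (2.82%, all genes 3.69%). None of these words contains another, and a match is not evidence of binding.

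The 12 members with the NRF1 core did not move as one. In miR155_KO 6 fell and 1 rose, with changes from -0.71 to 0.21 and a median of -0.11, equal to that of all members. Of the 5 members with the GABP form 4 fell, and of the 8 with the YY1 core 5 fell, beside 45.9% of all members and 35.3% of all genes. Among the 12, Cycs, Ndufaf4, Atp5k and Atp5l fell, Ndufa6 was the rise, and Sdhb, Cox6a1 and Atp5g2 did not pass. Nrf1 itself fell in miR155_KO from 5.35 ± 0.364 to 4.37 ± 0.361 RPKM (-0.27 ± 0.07, adjusted p = 0.00185) and had 5.36 ± 0.416 in PU1_KI. The 2 members with the PU.1 form, Ndufa5 and Ndufs4, fell in miR155_KO. In PU1_KI neither passed on the deposited values. Ndufa5 was lower than WT there under either alternative, at -0.26 each time (adjusted p = 0.0164 for median-of-ratios, 0.0135 for quantile). Ndufs4 had no call in PU1_KI under median-of-ratios scaling (-0.07, adjusted p = 0.196). The sites of Ndufa5 and Ndufs4 are printed because PU.1 is the factor changed in PU1_KI. They begin 196 and 21 bases before the start. The stretches shown lie at chr6:24527868-24527897 and chr13:114388097-114388126, both on the minus strand of GRCm38.p6 (RefSeq), with the motif in capitals.
Ndufa5: ttccataacctGAGGAAGTccgggtaaaat
Ndufs4: ctttgagaacgGAGGAAGTgagtccctagc

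Other genes of the same pathway were taken from lists drawn from textbook knowledge. Of 27 tested assembly factors outside the rule, 6 rose and none fell in PU1_KI (5 and 2 with median-of-ratios scaling), and 4 rose and 10 fell in miR155_KO. For these lists, as for the members, 23.7% of all genes were higher and 4.03% lower in PU1_KI, and 27.2% and 35.3% in miR155_KO. Oxa1l, the insertase of the inner membrane, rose in both, from 15.6 ± 0.381 to 20.3 ± 2.12 and 22.3 ± 0.611 RPKM (0.36 ± 0.06 and 0.50 ± 0.06, adjusted p = 0.000308 and 1.55e-06). Surf1, which helps assemble complex IV, rose in both as well (0.32 ± 0.06 and 0.27 ± 0.06). Genes of copper delivery to complex IV differed among themselves in miR155_KO. Cox11 fell from 4 ± 0.201 to 2.44 ± 0.309 RPKM (-0.62 ± 0.07, adjusted p = 6.06e-07) and Sco1 from 11.8 ± 0.916 to 9.71 ± 0.439, whereas Sco1 rose to 14.3 ± 0.872 in PU1_KI (adjusted p = 0.00217). Sco2 fell in miR155_KO (-0.52, adjusted p = 0.000127), and Cox17 stood at 4.41 ± 1.8 in WT and 4.67 ± 1.15 in miR155_KO (0.11, adjusted p = 0.662).

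Of 10 tested regulators of mitochondrial gene expression and of the synthase, none passed in PU1_KI and 5 fell in miR155_KO, where 35.3% of all genes were lower. Tfb1m, an rRNA methyltransferase of mitochondria, fell from 4.97 ± 0.386 to 3.75 ± 0.353 RPKM (-0.37 ± 0.08, adjusted p = 0.000512), and Tfam, the packaging factor of mitochondrial DNA, stood at 8.1 ± 0.781, 7.83 ± 0.706 and 7.58 ± 0.407 with no call.

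In the citric acid cycle 4 of 13 genes rose and none fell in PU1_KI (3 and 2 with median-of-ratios scaling), led by Dlst (0.31 ± 0.06) and Cs, citrate synthase (0.32 ± 0.07). In miR155_KO 2 rose and 4 fell, with Idh3a falling from 14.8 ± 0.99 to 10.1 ± 1.38 RPKM (-0.54 ± 0.08, adjusted p = 8.52e-06) and Fh1, fumarase, from 21.1 ± 0.361 to 16.9 ± 1.12. Among 11 genes of electron entry and of exchange across the membranes, 2 rose in PU1_KI, and 2 rose and 3 fell in miR155_KO. Median-of-ratios scaling turned the PU1_KI count to 0 higher and 2 lower. Vdac3, an outer membrane channel, rose from 26.5 ± 1.53 to 37.3 ± 1.24 RPKM (0.49 ± 0.05), while Dhodh, which feeds electrons from pyrimidine synthesis, fell from 4.45 ± 0.304 to 2.9 ± 0.499 (-0.55 ± 0.08).

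Most subunits encoded by the mitochondrial genome were higher in miR155_KO. Of 13, 9 rose and 2 fell in miR155_KO, with a median of 0.74, while the nuclear members had -0.11. mt-Nd3 and mt-Nd2, both of complex I, rose by 2.07 ± 0.09 and 1.35 ± 0.11, and mt-Co1, the catalytic subunit of complex IV, fell by 0.38 ± 0.09 (adjusted p = 0.00185). In PU1_KI 3 fell and none rose, with a median of -0.16. With median-of-ratios scaling the counts in miR155_KO were again 9 and 2, and 8 fell in PU1_KI.

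Markers of cell types were read beside these results. The 6 B cell markers, all tested, summed to 1488 to 1719 RPKM in WT, 1528 to 1779 in PU1_KI and 1348 to 1462 in miR155_KO, where 3 fell and none rose. The 5 plasmablast markers, also all tested, summed to 417 to 501, 224 to 344 and 267 to 406, so both mutants were below WT. In PU1_KI 1 rose and 2 fell, and in miR155_KO 1 rose and 3 fell. Igj gave most of the sum, at 282, 132 and 153 RPKM, whereas Irf4 rose in both, from 37.9 to 49.5 and 60.1 (0.38 and 0.66, adjusted p = 0.00066 and 2.35e-07). Of 7 macrophage markers 1 was tested, Cd68 (6.8, 10.9 and 5.08 RPKM), and their sums were 6.58 to 7.65, 10.5 to 12.1 and 5.88 to 6.38. Cd68 set these sums, while Emr1, under the filter, went from 0.2 and 0.253 to 0.738 RPKM in miR155_KO. Of 6 T cell markers 1 was tested, Lck (7.64, 6.42 and 5.33 RPKM), and the sums were 6.89 to 8.28, 5.71 to 7.02 and 5.44 to 6.93. Lck was lower than in WT in PU1_KI (-0.23, adjusted p = 0.0312) and in miR155_KO (-0.49, adjusted p = 2.51e-05). Cd8a, under the filter, went from 0.0307 and 0.0636 to 0.645 RPKM in miR155_KO. Of 5 stromal markers 1 was tested, Pecam1, with sums of 6.49 to 7.31, 6.77 to 7.55 and 3.19 to 3.96, and Col3a1 was at 0. The 6 neutrophil, 5 NK cell and 7 erythroid markers summed to 0.754 RPKM or less in every library, with none tested; S100a8, S100a9 and Elane, Klrd1, and Hbb-b1 and Hba-a2 were at 0. The part of plasmablast content, or of any other cell type, in the changes of the members was not tested.

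As Cox6a2 is a muscle isoform, and is also known from plasmacytoid dendritic cells, markers of both were added after its values were seen. The 6 striated muscle markers, none tested, summed to 0.181 to 0.364 RPKM in WT, 0.391 to 0.77 in PU1_KI and 0.752 to 1.05 in miR155_KO, with most of it in Tnnt2 (0.171, 0.484 and 0.813), while Myh7 was below 0.001 in all genotypes. Of the 5 plasmacytoid dendritic cell markers, Klk1 and Cd300c were at 0, Siglech was at 0 in WT and PU1_KI and at 0.0012 RPKM in miR155_KO, and the one tested, Pacsin1, fell in miR155_KO from 6.09 to 4.14 RPKM (-0.51, adjusted p = 0.000114). The fifth, Ccr9, stood at 0.0388, 0.0193 and 0.0461 RPKM. The part of either cell type in the Cox6a2 values was not tested.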

How the data were processed

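Polyadenylated RNA of 14 libraries (WT 4, PU1_KI 5, miR155_KO 5) was compared. The authors deposited RPKM per gene, made with Trim Galore, TopHat and build NCBIM37 per the submitters' processing notes; for read counter, annotation and strand setting, nothing is stated in the sources used here. All 14 columns were matched by name, leaving 0 unmatched. The table holds 22295 rows for 22232 genes, 63 of them repeats; no member repeats. Without strand, reads of overlapping genes cannot be told apart.

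Depth was the smallest that turned most of the 250 lowest values of genes under 2500 bp into whole reads. Between 66.4% and 72.8% came out within 0.01 reads, too few to recover counts, so no count model was run. Depth was 39.7 ± 3.64 M reads in WT, 38.8 ± 5.62 in PU1_KI and 46.4 ± 6.18 in miR155_KO (SD).

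The 9627 genes that reached 1 RPKM in 4 or more libraries entered limma 3.58.1 (R 4.3.3). The model took log2(RPKM + 0.5) and fitted the 14 libraries by genotype, an intensity trend, two-sided, and Benjamini-Hochberg adjusted p under 0.05 over all genes. This scale understates changes of low genes. Values are mean ± SD, and changes log2 ± SE. The script was tested on simulated data. The design text calls the replicates biological; index sequences repeat among the libraries, and no pool is named for a library. Near-identical copies were sought with blastn 2.17.0 among GENCODE M21 transcripts. Promoters are RefSeq windows of 300 bases; those of 71 members were matched. Python 3.11.15, pandas 2.3.3, numpy 2.4.6 and matplotlib 3.10.9 did the rest.

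Members and lists were chosen with earlier results of these data known. Named members were the 8 with the smallest adjusted p per comparison, the called member with the largest change per class, complex II, cytochromes, isoform families, and the highest and lowest per complex; other lists gave the 2 smallest adjusted p. Atp5s, Cox4nb, Atp5sl, Atp5f1, Atp5h, Ndufs4, Ndufb3, Uqcrfs1, Cox5a, Cox5b, Cox7c, Ndufaf1, Uqcr11 and Ndufs7 were chosen after their values were seen. So were Tfam, mt-Co1, Sco2, Cox17, Irf4, Emr1, Cd8a, the Cox6a2 neighbours, and the plasmacytoid dendritic cell and muscle markers. Alternatives were other pseudocounts, filters, scalings, a replicate block, fits of the compared genotypes alone and each library left out.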

Additional observations from a re-analysis of the deposited data

Results flagged for a closer look

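Single libraries far from the others of their genotype were sought in the named members, in 128 groups with any spread. By Dixon's test at the 95% level 16 were found, and chance gives about 1 in 20 groups. In 7 members the library apart was miR155_KO_5, always the highest: Atp5a1 at 169 RPKM (others 136 to 141), Atp5b at 339 (284 to 293), Cox6b1 at 134 (118 to 122), Cox7a2 at 61.3 (49.7 to 52.1), Ndufa4 at 104 (81.9 to 85.4), Sdhb at 57.9 (47.2 to 49.3) and Sdhd at 47.4 (38.4 to 40.3). That library also had the highest summed RPKM of its genotype. In WT_4, Atp5a1 stood at 182 (157 to 160) and Sdha at 48.1 (44.7 to 44.9). Cox7a2l was low in WT_1, at 55.1 (70.2 to 72.8). In WT_2, Ndufa3 was at 79.6 (69.9 to 71.5) and Ndufb4 at 2.47 (1.49 to 1.63), and Ndufb4 was low in miR155_KO_1, at 1.37 (1.81 to 1.99). Among members under the filter, Cox8b was above 0 only in WT_3 (0.0781) and miR155_KO_2 (0.109), and Ndufa4l2 was at 0 in WT_3 (0.0472 to 0.0536 in the other WT libraries).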

How the results depend on the processing

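Counts of members called depended on scaling more than on pseudocount or filter. For PU1_KI against WT the members lower numbered 3, and 15 with either median-of-ratios scaling or quantile normalization; the members higher numbered 5, and 3 to 13 with each library left out (3 without WT_1, 13 without PU1_KI_1, 8 without miR155_KO_5), and the member median of 0.07 became -0.02 under either scaling. For miR155_KO against WT quantile normalization gave 23 members higher. For miR155_KO against PU1_KI it gave 22 higher, 16 lower and a median of 0.01, and median-of-ratios scaling gave 27 lower. Under quantile normalization 8 named members turned from lower to higher there: Cox6b1 0.13, Cox7a2l 0.01, Cyc1 0.14, Ndufa4 0.11, Sdha 0.12, Sdhb 0.16, Sdhd 0.05 and Uqcrh 0.01. The cause was not tested. Of named calls, 5 of 8, 18 of 24 and 15 of 26 held in every alternative run, in the order above. Same-numbered libraries correlated above 0.1 in 7 of 13 pairs and other pairs in 18 of 52, and 4 of 14 libraries correlated best with their own number, so the number was not taken as pairing; as a replicate block it gave 7 higher and 4 lower, 11 and 39, and 7 and 45. Depth limits the low isoforms, whose values rest on few reads.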
